A study of Mus musculus with 4 samples.

Results

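The 37 genes described here encode proteins that copy DNA or stand next to the replication fork in S phase. They were listed by name and role rather than by a threshold on a value, but with earlier results of these data known. The list is therefore not independent of the data. The genes fall into 7 roles: 6 subunits of the MCM2-7 helicase, 4 licensing and helicase-activation factors, 7 factors at the clamp, clamp loader, primase and lagging strand, 3 enzymes of nucleotide supply, 6 factors of chromatin and histone supply, 8 factors of fork protection, checkpoint and repair, and 3 cyclin and E2F genes. All 37 were listed in all 4 libraries, among 29835 genes in all, and every member held at least 100 unique molecular identifiers (UMIs, counted mRNA molecules) in the tumour cells of at least 1 library.

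The libraries came from malignant ascites of female C57BL/6NCrl mice that carried ID8-Trp53-/- cells, a mouse ovarian surface epithelial tumour line without Trp53. The mice were 6 weeks old when the cells were injected. In the control group the mice had received DMSO and an IgG2a isotype antibody, in the BTYNB group BTYNB and the isotype antibody, in the anti-PD-1 group DMSO and the PD-1 antibody RMP1-14, and in the combination group BTYNB and the PD-1 antibody. BTYNB is a small-molecule inhibitor of the RNA-binding protein IGF2BP1, and PD-1 is an inhibitory receptor of T cells. Treatment began 7 days after engraftment and ended at about 3 mL of ascites; the labels give 50 mg/kg of BTYNB and 100 ng of antibody per dose, amounts that differ from those in the study's methods. Each group was 1 library made from the pooled ascites of several mice, so no difference between groups has a replicate check and none was tested; intervals are exact 95% intervals that cover counting error only.

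DNA replication starts from origins onto which CDC6 and its partners load the MCM2-7 ring in G1. CDC45, GINS and MCM10 turn that ring into an active helicase, the primase lays primers, and the sliding clamp PCNA holds the polymerases on the template while new histones and deoxynucleotides are supplied. Transcription factors of the E2F family raise most of these genes at the end of G1, and E2F8 acts later as a repressor of the same programme. The summed level in a cell population can move with how many of its cells are replicating, and also with the level in each cell.

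Stretches of a few promoters are printed here because the E2F family acts through short words in them. The 4 words TTTCCCGC, TTTGGCGC, TTTCGCGC and TTTGCCGC were searched on both strands in RefSeq windows of 250 bases before and 50 bases after each gene start (GRCm38.p6, an older build than that of the counts). Windows were found for 29 of the 37 members; Mcm4, Gins2, Rfc2, Tipin, Dscc1, Usp1, Exo1 and Ccne2 had no entry. At least 1 word lay in the windows of 11 of the 29 members (37.9%), against 704 of 27025 genes in the whole table (2.60%), 7 of 18 G1/S control genes (38.9%) and 3 of 47 G2/M genes (6.38%). The 11 members were Mcm3, Mcm5, Mcm6, Mcm7, Cdc6, Pola1, Uhrf1, Hells, Cdca7, Dtl and Clspn, so 4 of the 5 matched MCM2-7 genes held a word. A match describes these letters only, and was set against no binding data. Stretches of 30 bases are given below on the gene's strand, 5′ to 3′, with the words in capitals. In Mcm5 and Mcm6 the capitals span 2 words that overlap by 4 bases, on opposite strands.
Mcm5 (chr8:75109347-75109376, + strand, first word 153 bases before the gene start): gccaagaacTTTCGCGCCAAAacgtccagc
Mcm6 (chr1:128359795-128359824, - strand, first word 110 bases before the gene start): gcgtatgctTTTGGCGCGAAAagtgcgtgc
Mcm7 (chr5:138172030-138172059, - strand, first word 165 bases before the gene start): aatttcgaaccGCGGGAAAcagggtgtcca
Cdc6 (chr11:98908002-98908031, + strand, word 138 bases before the gene start): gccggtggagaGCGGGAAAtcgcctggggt
Hells (chr19:38930917-38930946, + strand, word 62 bases before the gene start): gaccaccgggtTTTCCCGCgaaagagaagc

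Tumour cells were taken as cells with at least 5 UMIs of Krt7, Krt8, Krt18, Krt19 and Wt1 together, no UMI of the leukocyte gene Ptprc and at least as many UMIs in all as the smallest cell of the combination library. The gate held 6841 of 7858 cells in the control library, 2855 of 19247 in the BTYNB library, 8798 of 12163 in the anti-PD-1 library and 4391 of 7074 in the combination library. Inside it the 10 tumour markers, which include the gate's own genes, summed to between 2798 and 3483 CPM (UMIs per 1000000 UMIs of the same gated cells). The 8 myeloid markers summed to between 25.5 and 78.3 CPM and 3 fibroblast markers to between 227 and 360 CPM. Since the gate requires some of these tumour genes and excludes Ptprc, the sums are no independent check of the label. The gated cells differed in depth, with a median of 18133 UMIs in BTYNB, 11476 in combination, 9977 in control and 7866 in anti-PD-1. Library totals ran from 78603888 to 114600397 UMIs.

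In tumour cells all 37 replication genes were lower after BTYNB than in control, where 50.7% of all genes had a log2 ratio below 0. Their summed level was 2851 (control), 2174 (BTYNB), 2790 (anti-PD-1) and 2431 CPM (combination). BTYNB lay lowest and the combination between BTYNB and the 2 libraries without the compound. The log2 ratio of the sums was -0.39 for BTYNB against control (interval -0.40 to -0.38). The median log2 ratio of the 37 members in that contrast was -0.39, while the median over all 13042 genes was -0.005. A gene was counted as past the limit when its log2 ratio was 0.32 or more from 0. Past it on the lower side were 25 of the 37 members (67.6%), against 14.8% of all genes, and no member was past it on the higher side, against 16% of all genes. In tumour cells of up to 15000 UMIs, a bound chosen after the depths were seen, the summed ratio was -0.72 and 36 members were past the limit on the lower side, against 21.6% of all genes. Without the Cxcl17 and Cd24a-set cells described below, the count fell to 19 members, against 13.8% of all genes.

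**Figure D1:**
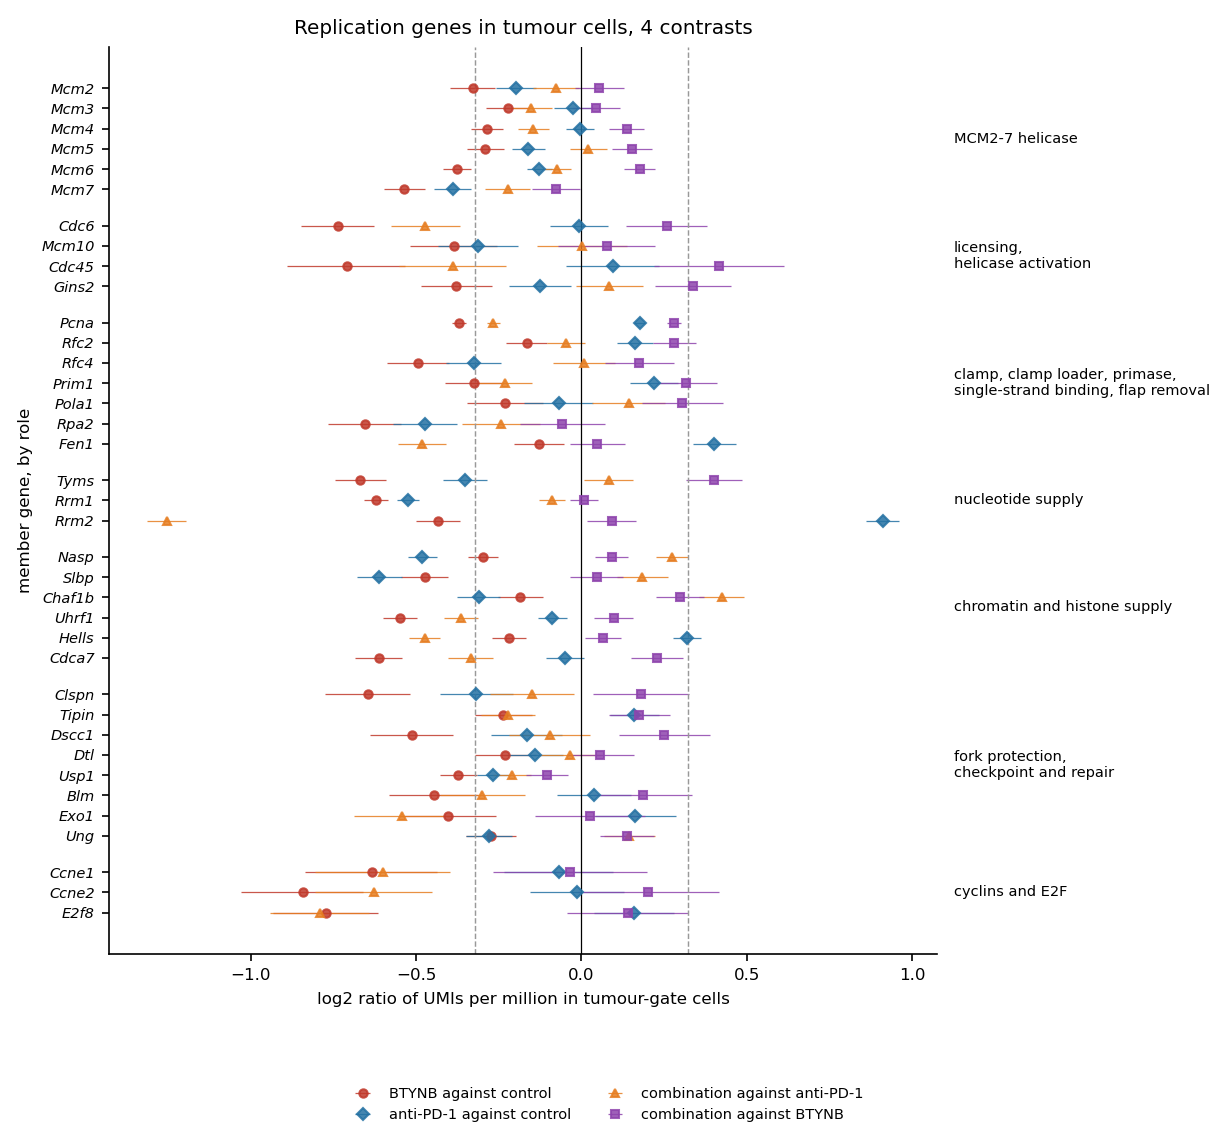
Log2 ratio of CPM in tumour-gate cells (x axis) for each of the 37 members (y axis, grouped by role) in 4 contrasts between single libraries, with exact 95% counting intervals as bars and dashed lines at the limit of 0.32. All red points (BTYNB against control) sit left of 0, and Rrm2 stands apart at 0.91 in anti-PD-1 against control and at -1.25 in combination against anti-PD-1.

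The 5 genes furthest below control after BTYNB were Ccne2, E2f8, Cdc6, Cdc45 and Tyms. Ccne2, a cyclin that activates CDK2 at the G1/S boundary, measured 11.0 (control), 6.15 (BTYNB), 10.9 (anti-PD-1) and 7.08 CPM (combination). E2f8 measured 14.4, 8.45, 16.1 and 9.31 CPM in the same order. For both genes the 2 libraries with BTYNB were low and the 2 without it high, and the log2 ratios of BTYNB against control were -0.84 (interval -1.03 to -0.66) and -0.77 (-0.93 to -0.62). Ccne1, the other E-type cyclin, followed the same split at 8.55, 5.51, 8.15 and 5.38 CPM, which gave a ratio of -0.63 after BTYNB, and -0.60 when the combination was set against anti-PD-1. As a role, the 3 cyclin and E2F genes had the lowest ratio of the 7 (-0.76).

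Among the licensing and helicase-activation factors all 4 were past the limit after BTYNB, with a role ratio of -0.54. Cdc6, the loader of the MCM ring, measured 29.4 (control), 17.6 (BTYNB), 29.3 (anti-PD-1) and 21.1 CPM (combination). Cdc45, part of the active helicase, measured 11.0, 6.70, 11.7 and 8.93 CPM. Both were lowest in BTYNB, at ratios of -0.74 and -0.71 against control, and the combination stood between. Gins2, a GINS subunit, was at 25.9, 19.9, 23.7 and 25.2 CPM, so that the combination lay between the 2 libraries without BTYNB. Mcm10 was at 17.2, 13.2, 13.9 and 13.9 CPM, with control alone at the higher level.

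The MCM2-7 genes had a role ratio of -0.34 after BTYNB, with 3 of 6 past the limit. Mcm2, the first listed, measured 63.0 (control), 50.1 (BTYNB), 54.9 (anti-PD-1) and 52.1 CPM (combination). Mcm7, the last listed, measured 80.8, 55.8, 61.7 and 52.9 CPM. Mcm7 was the member of the ring furthest below control after BTYNB, at -0.54, and also after anti-PD-1, at -0.39. Mcm6 was at 161, 124, 147 and 140 CPM. Mcm3, Mcm4 and Mcm5 were between -0.29 and -0.22 and stayed inside the limit.

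Pcna, the clamp itself, gave more UMIs to the sum than any other member, at 694 (control), 537 (BTYNB), 785 (anti-PD-1) and 652 CPM (combination), the highest value standing in anti-PD-1. Its ratio after BTYNB was -0.37, and the summed ratio without it was -0.40. Of the 7 clamp and lagging-strand factors, 4 were past the limit after BTYNB. Of the 3 members nearest to control, 2 came from this role. Fen1, the flap endonuclease that trims Okazaki fragments, measured 46.0 (control), 42.1 (BTYNB), 60.8 (anti-PD-1) and 43.5 CPM (combination), with a ratio of -0.13 after BTYNB (-0.20 to -0.05). Rfc2, a clamp loader subunit, measured 72.4, 64.5, 81.0 and 78.4 CPM and had a ratio of -0.17. Rpa2, a subunit of the protein that coats single-stranded DNA, stood at the other end, at 28.3, 18, 20.4 and 17.3 CPM and a ratio of -0.66. For Rpa2, control was alone at the top and the 3 treated libraries were close to each other.

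All 3 genes of nucleotide supply were past the limit after BTYNB, with a role ratio of -0.59. Tyms, thymidylate synthase, measured 57.3 (control), 36 (BTYNB), 44.9 (anti-PD-1) and 47.6 CPM (combination). Rrm1, the large subunit of ribonucleotide reductase, measured 244, 159, 170 and 159 CPM. Control was the highest library for both, and for Rrm1 the 3 treated libraries lay together. RefSeq lists a pseudogene copy of Tyms and 2 of Pcna, and how the authors' counting treated reads shared with such copies is not given in the sources used here.

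In the role of chromatin and histone supply 3 of 6 members were past the limit after BTYNB. Nasp, a histone chaperone, measured 140 (control), 114 (BTYNB), 100.2 (anti-PD-1) and 121 CPM (combination). Cdca7, an activator of the remodeller encoded by Hells, measured 65.4, 42.7, 63.2 and 50.1 CPM, low in both libraries with BTYNB. Chaf1b, a subunit of the histone chaperone CAF-1, measured 57.8, 50.8, 46.6 and 62.5 CPM and was among the 3 members nearest to control after BTYNB, at -0.18. Slbp, which binds the stem-loop of histone mRNAs, measured 61.3, 44.2, 40.1 and 45.6 CPM. Uhrf1, which carries DNA methylation through replication, had a ratio of -0.55.

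Fork protection, checkpoint and repair held 5 of 8 members past the limit after BTYNB, at a role ratio of -0.35. Clspn, the adaptor of the replication checkpoint, measured 20.8 (control), 13.3 (BTYNB), 16.7 (anti-PD-1) and 15.0 CPM (combination), which put all 3 treated libraries below control. Ung, which removes uracil from DNA, measured 50.2, 41.5, 41.3 and 45.7 CPM, at a ratio of -0.27 after BTYNB. Usp1, a deubiquitinase of PCNA, measured 96.9, 74.9, 80.5 and 69.6 CPM and was again highest in control. The other 5 members, Tipin, Dscc1, Dtl, Blm and Exo1, had ratios between -0.51 and -0.23.

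Genes of neighbouring lists were lower after BTYNB too. Of 51 other replication genes 24 were past the limit on the lower side and none on the higher, with a median of -0.31, where 14.8% of all genes were lower, and of 53 G2/M genes 38 were lower and none higher, with a median of -0.46. Of the 22 G1/S control genes that passed the count filter 9 were lower, with a median of -0.21. In the first list Asf1b, a histone chaperone near the lower end, was at 17.9 CPM in control and 10.4 CPM in BTYNB, and at the upper end were Cdt1, a licensing factor, at 42.3 and 42.1 CPM, and Pola2, a primase partner, at 28.9 and 34.5 CPM. In the G1/S list the ends were Ccna2, the S-phase cyclin, at 137 and 81.9 CPM, E2f7, a repressor, at 6.83 and 4.33 CPM, E2f4 at 44.5 and 50.9 CPM, and Ccnd2 at 193 and 210.0 CPM. In the G2/M list they were the mitotic kinesin Kif2c at 29.4 and 16.3 CPM, the kinase Nek2 at 28.9 and 17.0 CPM, the chromatin factor Ctcf at 82.0 and 82.3 CPM and the condensin subunit Ncapd2 at 40.9 and 44.0 CPM. In combination against anti-PD-1 the lower genes numbered 10 of the 51, 9 of the 22 and 27 of the 53, against 14.5% of all genes, and in combination against BTYNB the higher ones numbered 12, 1 and 11, against 6.6% of all genes. In anti-PD-1 against control 2, 4 and 11 were higher, against 14.3% of all genes, and 6, 1 and 2 were lower, against 21.5% of all genes. After BTYNB, 51 of the 53 G2/M genes and all 37 members were below control, against 50.7% of all genes.

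Cell by cell, a smaller share of tumour cells in the BTYNB library than in control held many replication UMIs. To set aside depth, UMIs were drawn at random from each cell down to the size of the smallest gated cell of the combination library, and member UMIs were summed. The median cell then had 10 member UMIs in anti-PD-1, 9 in control, 7 in combination and 6 in BTYNB. At least 31 member UMIs, the 90th percentile of control, were found in 10.04% of cells for control, in 5.99% for BTYNB (interval 5.15 to 6.92), in 10.4% for anti-PD-1 (9.81 to 11.1) and in 6.38% for the combination (5.67 to 7.14). The 2 libraries with BTYNB lay close to each other and the 2 without it likewise. At a limit of 10 UMIs, chosen after the distributions were seen, the shares were 49.7%, 33.8%, 51.7% and 40.8%, and there the combination lay between. Such a limit cuts a continuous range, and 9.88% of control cells lay within 1 UMI of it. Each member was also compared in cells with at least 10 UMIs of the other members, and in the remaining cells. For BTYNB against control the median log2 ratio of the members was -0.04 in the first cells and -0.37 in the second. For combination against BTYNB it was -0.12 and 0.24. This split rests on the members' own UMIs, and what it means for the summed level was not tested.

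**Figure D2:**
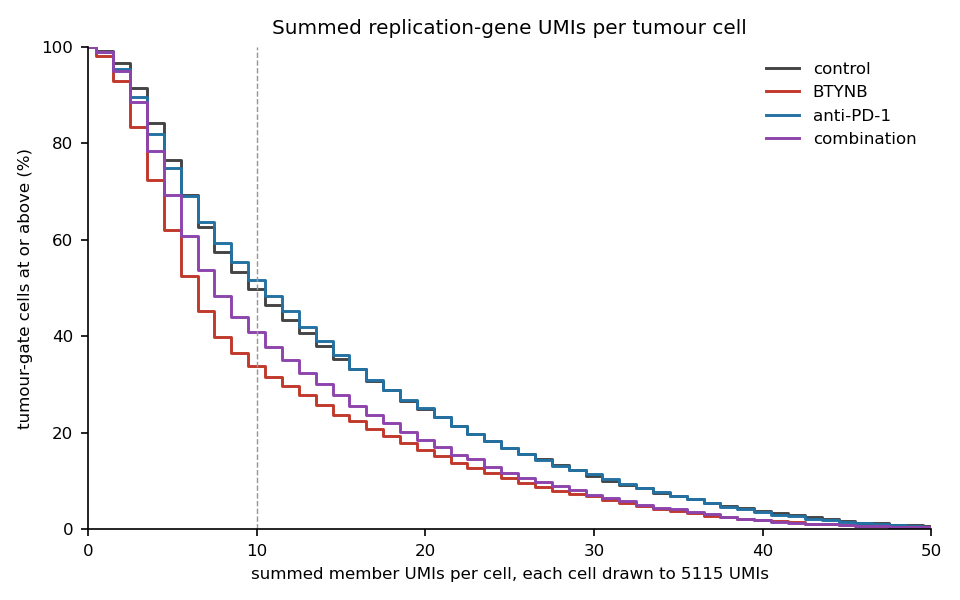
Share of tumour-gate cells in percent (y axis) that held at least a given number of member UMIs (x axis) after all cells were drawn to 1 equal depth, 1 line per library, with a dashed line at 10 UMIs. The control and anti-PD-1 lines nearly coincide, while at 10 UMIs BTYNB stands at 33.8% and combination at 40.8%.

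Tumour cells were also placed by their G2/M UMIs. With limits at the control library's 75th percentiles, 19 member UMIs and 35 G2/M UMIs, cells low for both made up 59.3% in control, 72.9% with BTYNB, 55.3% with anti-PD-1 and 66.6% with both. Cells high for the members alone made up 15.4%, 10.5%, 15.6% and 12.0% in the same order. Cells high for both made up 11.2%, 7.43%, 11.2% and 8.2%. In both libraries with BTYNB the low class was larger, and the classes high for the members smaller, than in the libraries without it.

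Deeper tumour cells had higher summed levels in control and combination, and in anti-PD-1 across the first 2 bins below. In BTYNB the middle bin was lowest and the deepest bin highest. The libraries were therefore also set side by side by depth. Among the gated cells of under 10000 UMIs the summed level was 2172 (control), 1705 (BTYNB), 2474 (anti-PD-1) and 1728 CPM (combination). Among cells of 10000 to under 20000 UMIs it was 3112, 1547, 3498 and 2307 CPM. In both bins the 2 libraries with BTYNB were below the 2 without it, and anti-PD-1 was above control. Among deeper cells it was 4308 CPM (196 control cells), 2550 CPM (1201 BTYNB cells) and 3517 CPM (479 combination cells), while the anti-PD-1 library had 3 cells there. Of the tumour cells, 64.2% held over 15000 UMIs in BTYNB and 1.51% in anti-PD-1. Larger cells and deeper capture cannot be told apart here, and the part of depth in the contrasts was not tested beyond these bins.

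**Figure D3:**
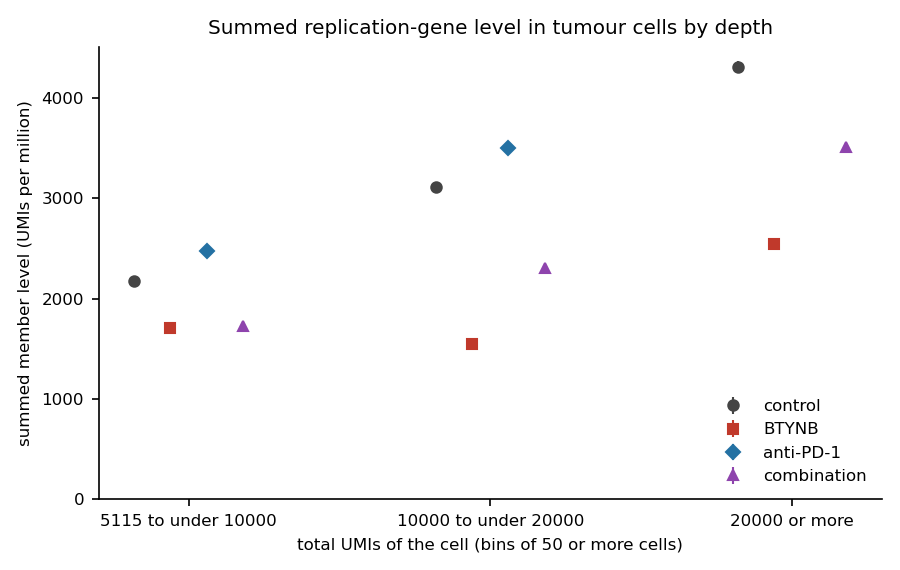
Summed level of the 37 members in CPM (y axis) in tumour-gate cells split by their total UMIs (x axis), 1 point per library with exact 95% counting intervals, for bins of at least 50 cells. In the middle bin BTYNB stands at 1547 and control at 3112.

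For anti-PD-1 against control the summed level hardly differed and its direction depended on the handling. The log2 ratio was -0.03 (-0.04 to -0.02), but it was 0.013 as a mean over cells, 0.0049 at equal depth, 0.078 without Cxcl17 and Cd24a-set cells, 0.061 with median-of-ratios scaling and 0.13 in cells of up to 15000 UMIs. Past the limit on the lower side were 7 of 37 members (18.9%), against 21.5% of all genes, and on the higher side 2, against 14.3% of all genes, so at this setting neither count stood above the background. In cells of up to 15000 UMIs they were 4, against 23.1%, and 8, against 14.3%, and with median-of-ratios scaling 4, against 14%, and 3, against 18.9%. Without a UMI floor 11 were lower, against 18.9%, and 2 higher, against 14.6%. Without Cd24a-set cells 8 were lower, against 13.5%, and 1 higher, against 12.1%. The lower count thus stood above the background in the last 2 settings, and the higher count in cells of up to 15000 UMIs. Without Cxcl17 and Cd24a-set cells 1 was lower, against 11.2%, and 4 higher, against 9.45%, so the higher count was slightly above the background there too. The median over members was -0.09, and over all 13044 genes it was -0.09 as well. The 7 lower members were Slbp, Rrm1, Nasp, Rpa2, Mcm7, Tyms and Rfc4, and the 2 higher ones Rrm2 and Fen1.

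Within this near balance the 2 subunits of ribonucleotide reductase went opposite ways. Rrm2, the small subunit, whose amount follows S phase, measured 67.8 (control), 50.2 (BTYNB), 127.5 (anti-PD-1) and 53.4 CPM (combination). The anti-PD-1 library was highest, control followed, and the 2 libraries with BTYNB were lowest. The ratio of anti-PD-1 against control was 0.91 for Rrm2 (interval 0.86 to 0.96) and -0.52 for Rrm1. Each part of the tumour gate had more Rrm2 in anti-PD-1 than in control, with 141 against 75.3 CPM in Cxcl17 cells, 195 against 103 CPM in Cd24a-set cells and 96.1 against 53.6 CPM in the rest. In the myeloid gate the same pair measured 76.0 and 72.2 CPM. Slbp was the lowest member of the contrast at -0.61, and Fen1 the second highest at 0.40.

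With BTYNB added to anti-PD-1 the replication genes were lower than with anti-PD-1 alone. The summed ratio of combination against anti-PD-1 was -0.20 (-0.21 to -0.19), and -0.51 in cells of up to 15000 UMIs. Past the limit on the lower side were 11 of 37 members (29.7%), against 14.5% of all genes, and on the higher side 1, against 23.1% of all genes. The median was -0.15, where all genes had 0.07. The lowest was Rrm2 at -1.25, followed by E2f8 at -0.79, Ccne2 at -0.63, Ccne1 at -0.60, Exo1 at -0.54, Fen1 at -0.48, Hells at -0.47 and Cdc6 at -0.47, with Cdc45, Uhrf1 and Cdca7 also past the limit. Chaf1b was the 1 higher member, at 0.42, and Nasp had the next highest ratio at 0.27. In cells of up to 15000 UMIs the lower members numbered 28, against 18.6% of all genes, and with median-of-ratios scaling 13 were lower, against 18.9%, and 1 higher, against 17.7%.

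Against BTYNB alone the combination had slightly higher replication genes. Of the 37 members 33 were above 0 and 4 below it, where 51.3% of all genes were below 0. The median was 0.14 where all 13040 genes had -0.006, and the summed ratio was 0.16 (0.15 to 0.17). No member was past the limit on the lower side, against 3.22% of all genes, and 3 were past it on the higher side (Cdc45 at 0.41, Tyms at 0.40 and Gins2 at 0.34), against 6.6% of all genes. At this setting the higher count was near the background. The lowest members were Usp1 at -0.10 and Mcm7 at -0.08. In cells of up to 15000 UMIs the summed ratio was 0.33 and 16 members were higher, against 11.4% of all genes. The contrasts share libraries with each other and are not independent.

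The tumour gate could be split by Cxcl17 (at least 3 UMIs) and by the set Cd24a, Gkn2 and Krtdap (at least 5 UMIs together), which overlapped in part. Cd24a-set cells carried the highest summed level in every library, at 3573 CPM (482 control cells), 2762 CPM (433 BTYNB cells), 3227 CPM (2632 anti-PD-1 cells) and 3306 CPM (632 combination cells). Their median depth was also higher than that of the rest, for example 14013.5 against 8756 UMIs in control. Cxcl17 cells measured 3106, 2173, 2851 and 2517 CPM, and cells of neither kind 2428, 1955, 2563 and 2168 CPM. BTYNB was lowest in all 3 divisions. The ratio of BTYNB against control was -0.52 in Cxcl17 cells, -0.37 in Cd24a-set cells and -0.31 in the rest. Combination against anti-PD-1 gave -0.18 and -0.24 in Cxcl17 cells and the rest but 0.03 in Cd24a-set cells, where the anti-PD-1 library held many more cells than the others.

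**Figure D4:**
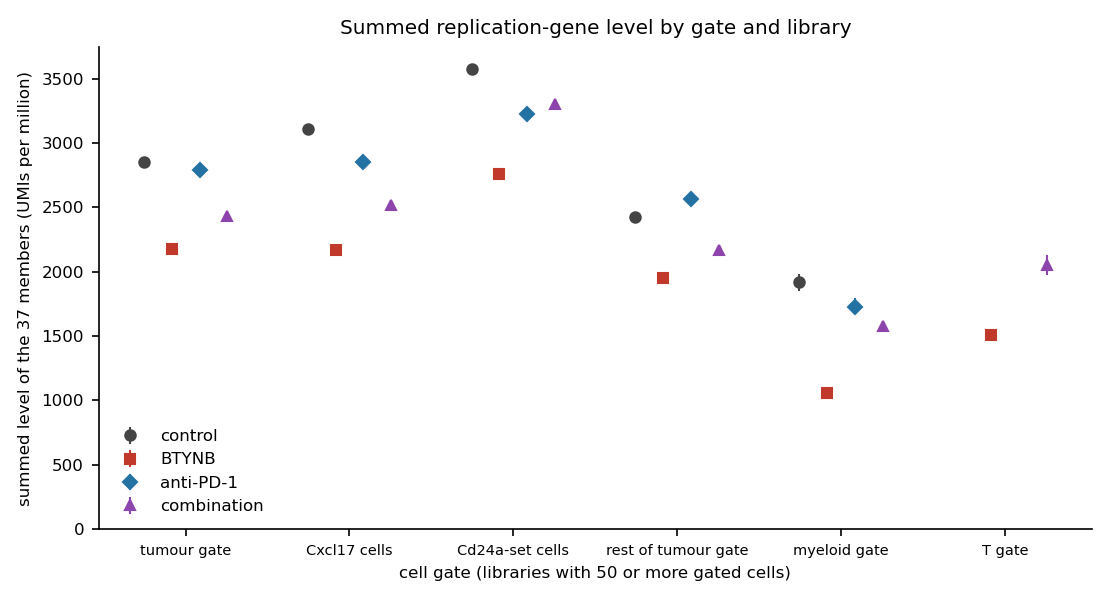
Summed level of the 37 members in CPM (y axis) by cell gate (x axis) and library, with exact 95% counting intervals; gates with under 50 cells in a library are not drawn. BTYNB is the lowest point in each of the 4 tumour divisions and in the myeloid gate, where it stands at 1058 against 1919 in control.

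The members did not vary alike among tumour cells. For each gene the cells of a library were ordered by the summed UMIs of the other 36 members, and its UMIs in the top 20% of cells were set against those in the bottom 20%, summed over the 4 libraries. Rrm2 was 48.7-fold higher at the top, Dscc1, a factor of the cohesion clamp loader, 45.7-fold and E2f8 43.6-fold. At the other end Rrm1 was 2.74-fold higher, Slbp 2.83-fold, Usp1 3.34-fold and Rfc2 3.77-fold. Rrm1 was flat and Rrm2 steep in each of the 4 libraries, with log2 ratios of 1.41 to 1.53 and of 4.84 to 6.28. The MCM2-7 genes spread from 5.79-fold for Mcm6 to 17.7-fold for Mcm3. These ratios share cells and depth across genes and are given as a description.

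Members also differed when the same cells were ordered by G2/M genes. Rrm2 was 33.9-fold and E2f8 27.0-fold higher in the top than in the bottom 20% by G2/M genes. Ung was 10.6-fold higher by the members (log2 ratio 3.41) but had a log2 ratio of 0.32 by G2/M genes, and was below parity in anti-PD-1 (116 against 158 UMIs), near parity in control (175 against 161 UMIs) and above it in BTYNB (140 against 33 UMIs). Cdc6, Ccne1 and Ccne2 also had lower ratios by G2/M genes, at 15.8-fold against 3.64-fold, 12.3-fold against 2.94-fold and 12.6-fold against 2.86-fold. These are genes known from the G1/S boundary, but other members were lower still, such as Slbp at 1.75-fold, Mcm6 at 2.25-fold and Mcm2 at 2.76-fold. Mcm3 fell from 17.7-fold to 4.47-fold, so a low ratio by G2/M genes did not set the G1/S genes apart. Rrm2, E2f8, Mcm10, Clspn, Exo1 and Dscc1 stayed at 14.0-fold or more by G2/M genes.

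**Figure D5:**
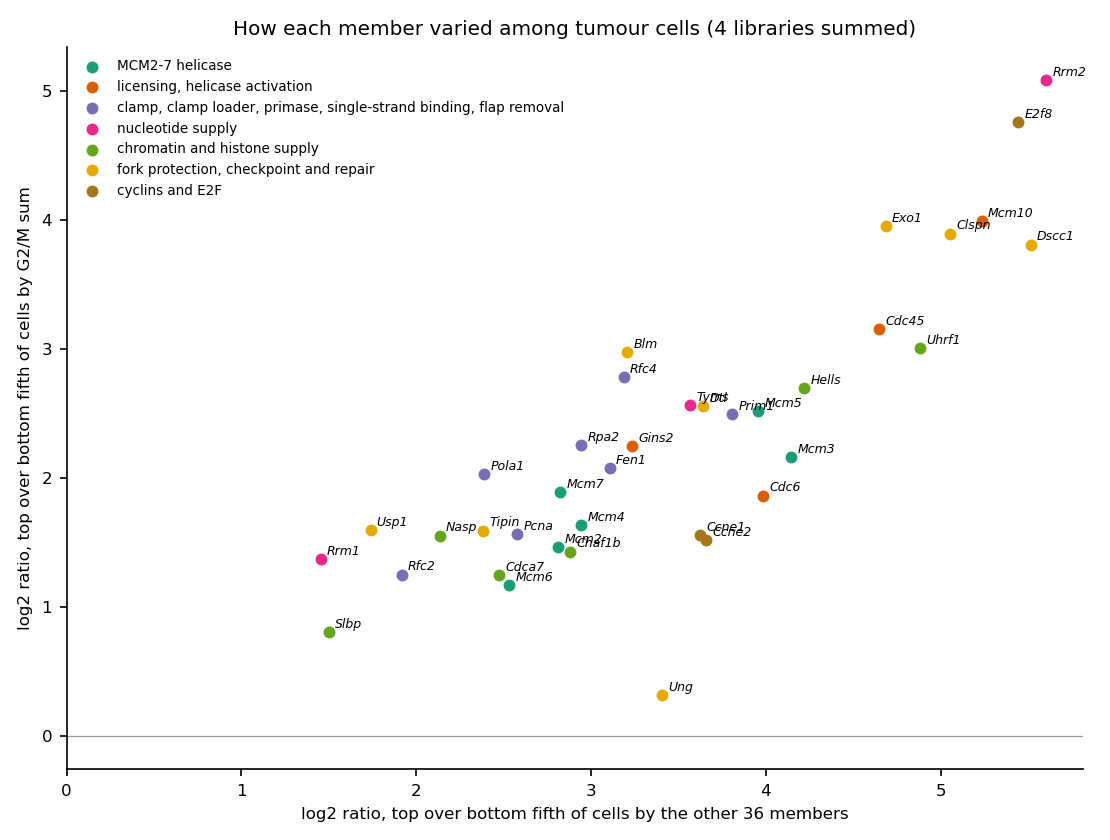
Each point is 1 member, placed by the log2 ratio of its UMIs in the top over the bottom 20% of tumour cells ordered by the other 36 members (x axis) and by G2/M genes (y axis), with the 4 libraries summed and roles in colour. Rrm2 and E2f8 lie at the upper right, Rrm1 and Slbp at the lower left, and Ung alone near 0 on the y axis.

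Myeloid cells carried the genes at lower levels than tumour cells of the same library. In the myeloid gate (at least 3 UMIs of Lyz2 and Csf1r, at most 2 keratin UMIs) the summed level was 1919 CPM (292 control cells), 1058 CPM (3174 BTYNB cells), 1730 CPM (384 anti-PD-1 cells) and 1582 CPM (1258 combination cells). These were 67.3%, 48.6%, 62.0% and 65.1% of the tumour level of the same library. G2/M genes stood at 114%, 67.2%, 82.4% and 82.5% of their tumour level in the same gates. A gauge of 6 tumour transcripts stood at 7.90%, 2.06%, 14.9% and 5.81% of its tumour level in these cells. Krt8 and Krt18, which the gate limits, stood at 5.66%, 2.37%, 6.36% and 4.48% of theirs. Among anti-PD-1 tumour cells the gauge itself ran from 44.0% in Cd24a-set cells to 139% in the rest, so it is no fixed measure of tumour RNA. For the members BTYNB was the lowest library and control the highest. Rrm1 measured 139 CPM in control and 45.6 CPM in BTYNB, Rrm2 72.2 and 22.8 CPM, and Pcna 370 and 221 CPM. The myeloid gates differed in makeup: 4 neutrophil markers summed to 1724 CPM in BTYNB and to between 37.8 and 406 CPM in the others, and the part of that difference in the result was not tested.

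After drawing each cell to 1000 UMIs, at least 5 member UMIs were found in 12.3% of myeloid cells for control (8.79 to 16.7), in 2.53% for BTYNB (2.01 to 3.15), in 12.2% for anti-PD-1 (9.13 to 15.9) and in 8.66% for the combination (7.17 to 10.4). Without drawing, the shares were 64.4%, 27.3%, 47.4% and 66.0%, at median depths of 5344, 4387.5, 4202.5 and 7067 UMIs; 18 BTYNB cells were too shallow to be drawn. The matching shares in tumour cells were 19.4%, 13.1%, 19.9% and 15.2%. In the neutrophil gate of BTYNB, which can share cells with the myeloid gate, 1 of 341 cells (0.293%, at most 1.62%) reached the limit at a median depth of 1406 UMIs. G2/M genes stood at 116% of their tumour level in that gate, so it was not read as a background of cells without cycle transcripts.

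T cells (at least 2 UMIs of Cd3d, Cd3e and Cd3g) could be measured in 2 libraries, since control held 22 and anti-PD-1 held 30 gated cells, with 491 and 428 member UMIs. The summed level was 1512 CPM in 2495 BTYNB cells and 2050 CPM in 158 combination cells, where tumour cells had 2174 and 2431 CPM. G2/M genes stood at 98.7% and 109% of their tumour level in these T cells. The tumour gauge stood at 20.2% and 49.8% of its tumour level in these gates, and its part in the result was not tested. With keratin, myeloid and B-cell UMIs limited, the levels were 1393 CPM in 2189 BTYNB cells and 2921 CPM in 53 combination cells, so that the gap between the libraries widened and the combination stood above its tumour level. Among T cells at least as large as the smallest combination cell the order turned, with 2191 CPM in BTYNB, close to its tumour level. Drawn to 1000 UMIs, 3.16% of BTYNB T cells (2.51 to 3.93) and 14.6% of combination T cells (9.46 to 21.0) held at least 5 member UMIs, from median depths of 2175 and 7500 UMIs and undrawn shares of 20.7% and 81.0%. The smallest cell had 869 UMIs in the BTYNB library and several times as many in the combination library, so shallow T cells could enter the first library alone.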

How the data were processed

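Ascites cells of 4 groups were profiled with BD Rhapsody whole-transcriptome libraries, 1 library per group. The authors deposited raw UMI counts per gene and cell, made with the vendor's pipeline on GRCm39 per the labels; its cell caller set a different smallest cell in each library. No deposited annotation was used: cells were gated by marker UMIs, and libraries shared at most 4 barcodes. Doublets were not removed; scrublet (scanpy 1.11.5) marked between 0.0127% and 2.30% of cells, which in 2 libraries is too few to trust, and removal of the top 5% of scores was tried instead. Counts were summed per gate and given as CPM and as log2 ratios without pseudocount, with exact Poisson or binomial intervals (Python 3.11.15, scipy 1.17.1). Genes needed 100 UMIs in 1 library. Cells were drawn without replacement to the smallest combination cell's depth or to 1000 UMIs (seed 1). Scripts were tested on simulated data. With 1 library per group no test was possible.

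Members and gene lists were chosen with earlier results of these data known. By rule, values are printed for the 5 lowest and 3 highest members of BTYNB against control, the 2 lowest and 2 highest of each other contrast, the first and last of each role, Ccne1, Ccne2 and E2f8, and the 2 lowest and 2 highest of each neighbouring list; further members were named after their values were seen. 1 such gene of a neighbouring list is not reported here.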

Additional observations from a re-analysis of the deposited data

Results flagged for a closer look

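Tyms moved opposite ways when anti-PD-1 was given without and with BTYNB. Its log2 ratio was -0.35 for anti-PD-1 against control and 0.40 for combination against BTYNB, both past the limit of 0.32. The difference between these ratios was not tested, since each group had 1 library.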

How the results depend on the processing

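No paired analysis was possible because each group had 1 library, and none could be left out. Of the values recomputed under other settings 110 stayed within their counting interval or within 1.5 times, 57 moved and 5 changed sign, all 5 in the summed level of anti-PD-1 against control; causes were not tested. The summed log2 ratio of BTYNB against control was -0.42 as a mean over cells and with cells drawn to equal depth, -0.31 without Cxcl17 and Cd24a-set cells, -0.46 without Cd24a-set cells and -0.72 in cells of up to 15000 UMIs. For anti-PD-1 against control these settings gave 0.013, 0.0049, 0.078, -0.12 and 0.13, with -0.093 without a UMI floor, 0.061 with median-of-ratios scaling and -0.10 without Pcna. For combination against anti-PD-1 the values were -0.28 (mean over cells), -0.27 (equal depth), -0.24 (without Cxcl17 and Cd24a-set cells), -0.51 (up to 15000 UMIs), -0.13 (no floor), -0.28 (median of ratios) and -0.17 (without Pcna). For combination against BTYNB they were 0.15 without Cxcl17 and Cd24a-set cells, 0.14 without Cd24a-set cells, 0.33 up to 15000 UMIs and 0.12 without Pcna.

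Each count of members past a limit is followed by the share of all genes past it under the same setting. At a fold of 1.5 the lower members numbered 10 in BTYNB against control (4.86%), 1 in anti-PD-1 against control (6.12%) and 4 in combination against anti-PD-1 (7.13%), and the higher ones 1 in anti-PD-1 against control (7.46%), 0 in combination against anti-PD-1 (9.42%) and 0 in combination against BTYNB (1.58%). In cells of up to 15000 UMIs anti-PD-1 against control had 4 lower (23.1%) and 8 higher (14.3%), combination against anti-PD-1 28 lower (18.6%) and 0 higher (24.9%), and combination against BTYNB 16 higher (11.4%). Without Cxcl17 and Cd24a-set cells BTYNB against control had 19 lower (13.8%), and anti-PD-1 against control 1 lower (11.2%) and 4 higher (9.45%). At that setting combination against anti-PD-1 had 0 higher (15.7%) and combination against BTYNB 5 higher (7.32%). The lower count of anti-PD-1 against control was 11 without a floor (18.9%) and 4 with median-of-ratios scaling (14%). The share of tumour cells with a high member sum was 17.9% (BTYNB), 26.8% (anti-PD-1) and 20.2% (combination) at the control library's 75th percentile, 33.8%, 51.7% and 40.8% at 10 UMIs, and 7.37%, 12.5% and 7.31% without Cxcl17 and Cd24a-set cells; without drawing it was 5.65% in the combination. With the tumour gate's UMI floor the myeloid level was 1986 CPM in control, 1290.1 CPM in BTYNB and 1819 CPM in anti-PD-1, and the T level 2191 CPM in BTYNB. As means over cells they were 832 (myeloid, BTYNB), 1497 (myeloid, combination) and 1213 CPM (T, BTYNB). Without UMIs of other leukocyte classes they were 1041 (myeloid, BTYNB), 1393 (T, BTYNB) and 2921 CPM (T, combination), and with Ptprc and no keratin 1367 CPM (T, BTYNB).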

Other observations

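B cells (at least 2 UMIs of Cd79a, Cd79b and Ms4a1, outside the tumour, myeloid and T gates) and neutrophils (at least 20 UMIs of S100a8 and S100a9, at least 1 of Csf3r, none of Csf1r, outside the tumour, T and B gates but not the myeloid one) were gated after the data were seen, both with at most 2 keratin UMIs. The members summed to 1141 CPM in 3367 BTYNB B cells and to 1851 CPM in 72 combination B cells, and to 872 CPM in 364 BTYNB neutrophils. The neutrophil level was 40.1% of the tumour level, while G2/M genes stood at 116% of theirs in the same cells. In BTYNB B cells Rrm2 stood at 9.52 CPM and E2f8 at 2.24 CPM, and Nasp at 107 CPM and Slbp at 76.7 CPM.

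Cells in none of the tumour, myeloid and T gates, which include B cells and tumour cells too shallow for the gate, had summed levels of 2317 (control), 1619 (BTYNB), 1895 (anti-PD-1) and 2212 CPM (combination). The tumour gauge in them stood at 102%, 38.9%, 129% and 56.4% of its tumour level.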
